A study of Rattus norvegicus with 6 samples.

Results

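The 9 genes described here encode ligands and receptors of the platelet-derived growth factor (PDGF), fibroblast growth factor (FGF) and vascular endothelial growth factor (VEGF) families: Pdgfra, Pdgfrb, Pdgfa, Pdgfb, Fgf1, Fgf2, Fgfr1, Vegfa and Vegfb. They were taken as every probe set whose 1 gene symbol in the platform annotation was one of these names, which gave 20 of the 8799 probe sets of the chip and 9 of its 4736 genes with such a probe set. Each probe set, a group of short probes against a transcript, was kept apart. Expression was measured in whole aorta of spontaneously hypertensive rats (SHR), an inbred strain with high blood pressure. The runner group had 5 weeks of voluntary exercise in cages with a wheel, and the non-runner group did not run. Both groups are of the same strain, and age and sex are not given in the labels. Each group had 3 chips, named A, B and C, and 3 aortae were pooled on each chip. The runner chips also carry the letters D, E and F, and whether a letter pairs a runner with a non-runner chip is not in the labels.

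These ligands act by joining a pair of receptor tyrosine kinases on the cell surface, which then phosphorylate each other and recruit Ras, phosphoinositide 3-kinase and phospholipase C signalling. In the artery wall, PDGF chains released by platelets, endothelium and other cells act on PDGF receptors of smooth muscle cells, pericytes and fibroblasts and drive their migration and division. FGF ligands bind FGF receptors together with heparan sulphate. VEGF-A acts mainly on receptors of endothelial cells and sustains capillary growth, while VEGF-B binds Flt1 and is abundant in tissues that burn fat.

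Non-runner B stood apart before any gene was considered. For beta-actin, the 3' probe set divided by the 5' one, a measure that grows where 5' signal is lost, gave 2.14 there and 1.22 to 1.67 on the other arrays. For GAPDH the same measure gave 1.95 and 1.11 to 1.39. Group means for GAPDH differed with an exact two-sided permutation p of 0.1, the smallest that 3 against 3 allows. Each tested member is therefore given with and without that array, and the brightest tested probe set of other named genes where leaving it out moved the difference by over 1.5 times. Array medians were 28.5 to 32.2, and 19 control probe sets that should find no rat transcript (yeast targets or the wrong strand) had a 95th percentile of 40.8. That value serves as a control level, below which an intensity is not established as signal. Every smooth muscle marker measured, 7 of 7, had at least 1 array above it. How the animals were shared out between pools is not in the labels, so p-values measure only the spread between pools, part of which may be technical.

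Of the 9 genes, 8 were tested and none passed, while Pdgfb was too dim to be tested. Of the 20 probe sets, 6 lay above the control level on all arrays, 4 on some and 10 on none. Of the 20, 15 probe sets of 8 genes were bright enough to be tested, and 5 were not. Of the 15, 0 had a limma adjusted p under 0.05 over the 5244 probe sets tested, and over all 5244 the share was 0%. The adjusted p of the 15 ran from 0.589 to 0.976. At an unadjusted p under 0.05, 1 of the 15, that of Pdgfrb, was higher in runners (6.67%, against 3.83% of all tested), and 0 were lower (against 4.23%). The groups did not overlap for 2 of the 15 with runners higher, where 7.36% of all tested did so, and for 1 with runners lower, where 7.49% did so.

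**Figure D1:**
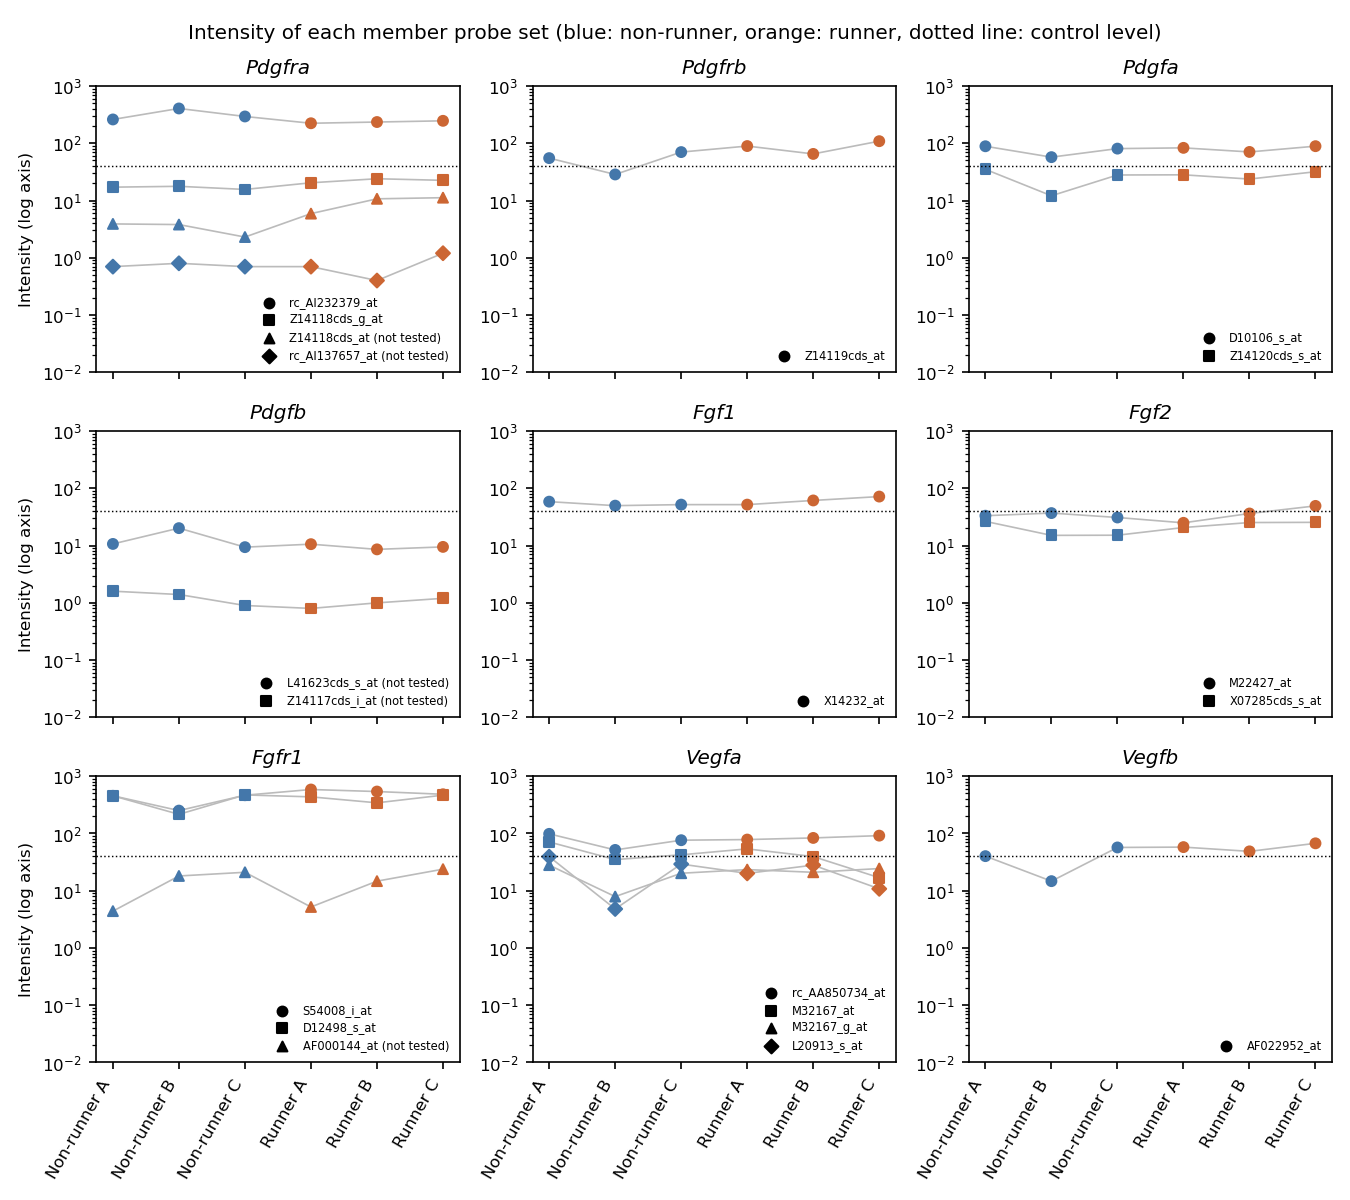
Deposited intensity (log axis, no unit) of the 20 member probe sets, 1 panel per gene, on the 3 non-runner arrays (blue) and the 3 runner arrays (orange); symbols mark probe sets, grey lines join the values of a probe set, and the dotted line is the control level of 40.8. Non-runner B is low for Pdgfrb, Vegfb and the bright Fgfr1 probe sets and high for the bright Pdgfra probe set.

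No PDGF receptor passed the test, and the probe sets of Pdgfra lay on both sides of 0. Pdgfrb, the beta receptor, which carries PDGF-B signals in smooth muscle and pericytes, has 1 probe set (Z14119cds_at). Its intensity was 55.0, 28.5 and 70.1 on non-runners A, B and C, and 89.3, 65.1 and 108.7 on runners A, B and C. The groups overlapped, since runner B lay below non-runner C, and non-runner B was the lowest array. The means were 51.2 ± 21.1 and 87.7 ± 21.8 (SD, n = 3), a log2 difference of 0.79 ± 0.32 (SE). This corresponds to a fold of 1.73 with a 95% interval of 1.04 to 2.87 (limma unadjusted p = 0.0376, adjusted p = 0.589). Without non-runner B the log2 difference was 0.45 ± 0.24 (limma unadjusted p = 0.104).

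Pdgfra, the alpha receptor, which binds all of the classical PDGF chains and marks many fibroblasts, has 4 probe sets, and they did not run the same way. The brightest (rc_AI232379_at) measured 260.4, 405.1 and 293.7 on non-runners A, B and C and 223.5, 234.8 and 246.5 on the runners. All runner arrays lay below all non-runner arrays, and non-runner B was the highest of the 6. The log2 difference was -0.43 ± 0.19 (SE, 95% interval -0.87 to 0.01, limma adjusted p = 0.625), and -0.25 ± 0.14 without non-runner B. Another probe set (Z14118cds_g_at) measured 17.1, 17.7 and 15.6 in non-runners and 20.4, 24.0 and 22.5 in runners. Here the order was turned, with all runner arrays above all non-runner arrays, but every value lay below the control level. Its log2 difference was 0.32 ± 0.14 (SE, limma adjusted p = 0.625) and 0.38 without non-runner B. A related probe set (Z14118cds_at) was also higher on every runner array, at 5.9 to 11.2 against 2.3 to 3.9, and was too dim to be tested. The remaining one (rc_AI137657_at) lay between 0.4 and 1.2 on all arrays.

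Pdgfrb and the bright Pdgfra probe set were also set against each other within each array, a pair chosen after the values were seen. The Pdgfrb log2 level minus that of Pdgfra differed between the groups by 1.22, and by 0.71 without non-runner B. The exact two-sided permutation p was 0.1, the smallest that 3 against 3 allows, and 0.15 adjusted over 3 pairs of probe sets, so the difference did not pass. The 3 pairs include one with a dim Pdgfra probe set, whose values below the control level give no usable difference. No direction of Pdgfra as a gene is given.

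The Pdgfra promoter is shown as a description, and any link to the split between the gene's probe sets was not tested. The sequence is from RefSeq, build GRCr8, chr14:33408467-33408766 on the minus strand, and runs from 250 bases before to 50 after the annotated start. Capitals mark the CCAAT box, searched on both strands and found here as its reverse complement.
Pdgfra: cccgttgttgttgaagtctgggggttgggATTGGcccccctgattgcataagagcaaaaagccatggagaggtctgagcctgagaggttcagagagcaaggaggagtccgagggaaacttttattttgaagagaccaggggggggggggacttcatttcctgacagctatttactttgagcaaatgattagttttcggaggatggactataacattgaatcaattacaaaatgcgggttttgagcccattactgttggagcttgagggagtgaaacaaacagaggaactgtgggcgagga
The window held 1 CCAAT box, 0 GC boxes (GGGCGG, both strands) and 0 TATA boxes (TATAAA, both strands), and its GC content was 48.0% where the median of all such windows was 51.7%. Of 33469 promoter windows of the same length, 37.5% held a CCAAT box, 33.1% a GC box and 14.2% a TATA box. A match describes letters and not a bound site. Entries were found for 7 of the 9 genes.

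The tested PDGF ligand readings, both of Pdgfa, did not differ beyond the spread between arrays. Pdgfa encodes the A chain, which acts through the alpha receptor. Its brighter probe set (D10106_s_at) measured 88.6, 57.2 and 80.6 in non-runners and 83.1, 70.5 and 88.9 in runners, with overlapping groups and non-runner B lowest. The log2 difference was 0.11 ± 0.20 (SE, 95% interval -0.35 to 0.56), and it was -0.072 without non-runner B. The dimmer probe set (Z14120cds_s_at) lay at 35, 12.1 and 27.9 and at 28.1, 23.7 and 31.8, below the control level throughout, with a log2 difference of 0.19 ± 0.32 (SE). Without non-runner B this value was -0.20, so the sign of both Pdgfa probe sets rested on that array. Pdgfb, the B chain, which also acts on the beta receptor, was not detectable above the control level. Its probe sets read 8.6 to 20.2 (L41623cds_s_at) and 0.8 to 1.6 (Z14117cds_i_at) over the 6 arrays, and neither was tested. Platelets carry both chains, and the 4 platelet and red blood cell markers measured had a score (mean log2 level, each gene centred over the 6 arrays) of -0.32 to -0.05 in non-runners and -0.05 to 0.55 in runners, with 0 of the 4 below the control level throughout. Most of their summed intensity, 1209 to 1643 in non-runners and 1808 to 3374 in runners, was the haemoglobin gene Hbb, at 889 to 1311 and 1446 to 2911. The platelet markers were Pf4, at 140 ± 8.2 and 179 ± 8.6 (log2 difference 0.35 ± 0.14 SE, limma adjusted p = 0.585), and Itga2b, at 54.97 ± 9.5 and 57.1 ± 11.1 (0.04 ± 0.18, and 0.14 without non-runner B). The part of blood in the Pdgfa values was not tested.

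Among the FGF genes, the bright readings were those of Fgfr1, a receptor of smooth muscle, fibroblasts and fat precursors. One probe set (S54008_i_at) measured 455.4, 251.0 and 465.7 in non-runners and 586.2, 540.1 and 483.8 in runners. The groups did not overlap, although non-runner C and runner C lay close together. The log2 difference was 0.51 ± 0.25 (SE, 95% interval -0.05 to 1.08, limma adjusted p = 0.65), and 0.23 ± 0.13 without non-runner B. The other bright probe set (D12498_s_at) measured 455.2, 216.0 and 471.4 in non-runners and 436.2, 343.2 and 467.1 in runners. These groups overlapped, with non-runner C the highest array and non-runner B the lowest. Its log2 difference of 0.20 ± 0.30 (SE) became -0.16 ± 0.17 without non-runner B. The level of the first minus that of the second differed between groups by 0.31 on the log2 scale and by 0.39 without non-runner B. The exact two-sided permutation p was 0.2, and 0.2 adjusted over the same 3 pairs. As above, this test could not reach 0.05 and does not decide whether the groups differ. A dim Fgfr1 probe set (AF000144_at) ranged from 4.4 to 23.8 and was not tested. The chip also holds a probe set for Fgfr1-ps1, a pseudogene copy outside the set described, at 48.0 ± 6.4 and 54.2 ± 10.1 (SD, n = 3), and how far copies share signal was not tested.

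Fgf1, the acidic FGF, which can bind every FGF receptor, measured 58.6, 49.9 and 52.0 in non-runners and 52.0, 61.5 and 71.9 in runners (X14232_at). The groups overlapped, with runner C highest. The log2 difference was 0.17 ± 0.15 (SE, 95% interval -0.18 to 0.53), with 0.13 without non-runner B and 0.09 without runner C. Fgf2, the basic FGF of the smooth muscle and endothelial matrix, measured 33.3, 37.0 and 31.0 and then 25.0, 36.4 and 49.4 in its brighter probe set (M22427_at). Only runner C lay above the control level, and the log2 difference was 0.05 ± 0.21 (SE), or 0.12 without non-runner B and -0.13 without runner C. In the other (X07285cds_s_at) the values were 26.5, 15.1 and 15.2 and then 20.7, 25.3 and 25.5, with a log2 difference of 0.29 ± 0.20 (SE). It was 0.20 without non-runner B, 0.19 without non-runner C and 0.50 without non-runner A (limma unadjusted p = 0.0184, adjusted p = 0.433). The values of Fgf2 are thus mostly at a level where signal is not established.

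The VEGF ligand readings scattered widely between arrays. Vegfa, the main endothelial growth factor and a target of hypoxia signalling, has 4 probe sets, all tested, with log2 differences of 0.19 ± 0.23, -0.51 ± 0.43, 0.33 ± 0.34 and -0.08 ± 0.61 (SE) in order of falling brightness. The brightest (rc_AA850734_at) measured 98.5, 51.6 and 76.3 in non-runners and 78.3, 83.6 and 91.7 in runners. Non-runner A was highest and non-runner B lowest, so the runner arrays lay inside the non-runner range. Without non-runner B its log2 difference was -0.047 ± 0.15 (SE). The next (M32167_at) measured 71.1, 35 and 42.4 and then 53.8, 39.5 and 16.9, with runner C lowest. Its difference rested on that array, since it was -0.024 without runner C, where it was -0.87 without runner A and -0.25 without non-runner A. A probe set for the same transcript (M32167_g_at) read 28.0, 7.9 and 20.2 and then 23.4, 21.0 and 24.4. The fourth (L20913_s_at) read 39.4, 4.8 and 29.2 and then 20.1, 28.0 and 10.8. Neither of these last probe sets was above the control level on any array. Without non-runner B all 4 Vegfa differences were below 0, at -0.047, -0.71, -0.092 and -0.83, and the limma unadjusted p ran from 0.0577 to 0.765.

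Vegfb, the relative of Vegfa that binds Flt1, measured 40.2, 14.7 and 57.0 in non-runners and 57.8, 48.7 and 67.3 in runners (AF022952_at). The groups overlapped, and non-runner B was 14.7 where the other arrays were 40.2 or more. The means were 37.3 ± 21.3 and 57.9 ± 9.3 (SD, n = 3), and 48.6 for non-runners A and C alone. The log2 difference was 0.74 ± 0.40 (SE, 95% interval -0.18 to 1.66, limma adjusted p = 0.665), and 0.25 ± 0.21 without non-runner B.

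Non-runner B was the lowest array for Vegfb and for 3 of the 4 Vegfa probe sets. This was not particular to the VEGF ligands, since it held for 11 of the 15 tested member probe sets. Among these were both of Pdgfa and both tested ones of Fgfr1. Any link between that array and promoter letters was not tested, and the Vegfa and Vegfb promoters are shown as a description. Both are from RefSeq, build GRCr8, with the window as above: chr9:22452604-22452903 on the plus strand for Vegfa and chr1:213607103-213607402 on the minus strand for Vegfb. Capitals mark the GC box, GGGCGG or its reverse complement, a match to the binding letters of Sp1-type factors, and neighbouring boxes may run together.
Vegfa: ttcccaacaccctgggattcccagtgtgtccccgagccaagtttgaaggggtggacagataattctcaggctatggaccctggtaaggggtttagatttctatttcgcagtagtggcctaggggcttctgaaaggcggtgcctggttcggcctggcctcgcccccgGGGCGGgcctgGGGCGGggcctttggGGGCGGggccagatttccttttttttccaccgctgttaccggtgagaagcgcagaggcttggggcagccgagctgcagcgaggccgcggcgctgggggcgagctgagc
Vegfb: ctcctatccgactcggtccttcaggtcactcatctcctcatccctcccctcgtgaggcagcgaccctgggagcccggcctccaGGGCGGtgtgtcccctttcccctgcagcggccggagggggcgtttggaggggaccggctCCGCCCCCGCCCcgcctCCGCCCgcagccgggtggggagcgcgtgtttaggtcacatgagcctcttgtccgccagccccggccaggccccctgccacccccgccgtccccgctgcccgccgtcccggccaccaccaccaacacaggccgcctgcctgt
The Vegfa window held 3 GC boxes and the Vegfb window 4, with a GC content of 63.3% and 73.7%. Neither held a CCAAT or TATA box. A second annotated Vegfa start (chr9:22460028-22460327, plus strand) had 0 GC boxes and 1 CCAAT box. The windows of Pdgfa, Pdgfb and Fgf1 had 1 GC box each and that of Fgf2 had 0.

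**Figure D2:**
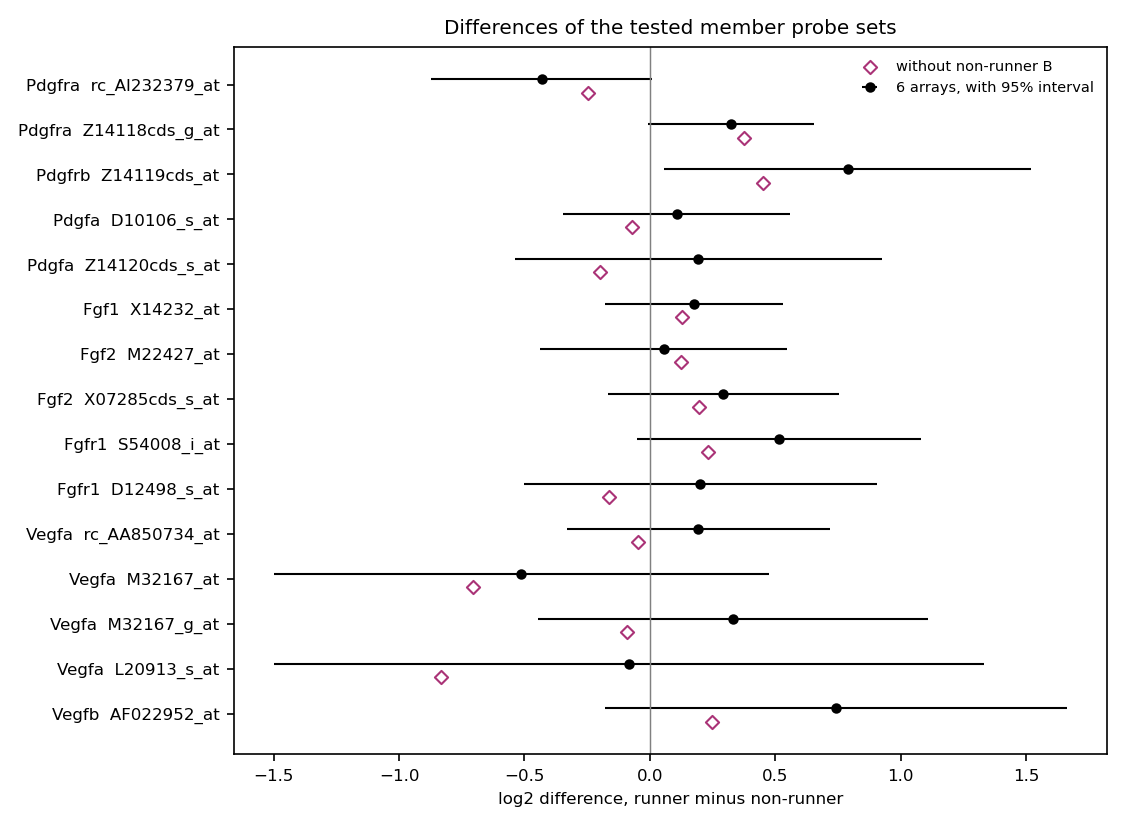
Log2 difference of runner minus non-runner (x axis) for the 15 tested member probe sets, as black points with 95% intervals from limma over 6 arrays, and as open diamonds without non-runner B. The interval lies wholly above 0 for Pdgfrb, and 5 probe sets have their diamond on the other side of 0.

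Across the 15 tested probe sets, 12 differences were above 0 and 3 below (80% above 0, against 49.2% of all tested). Their median log2 difference was 0.19, beside -0.0052 for all tested. Probe sets of a gene share a transcript, so these are not 15 independent readings. Non-runner B was the lowest of the 6 arrays for 11 of the 15 (73.3%, against 27.6% of all tested) and the highest for 1 (6.67%, against 30.5%). Without non-runner B the median was -0.047, beside 0.0006 for all tested, and 5 of the 15 changed sign. The lean toward higher values in runners thus depended on that array.

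Of the marker lists given here, the scores of fat and smooth muscle stood apart on the same array, though the smooth muscle genes did not move together. The score of white and brown fat markers (11 genes tested of 14 listed) was -0.48 on non-runner B, 0.20 on A, 0.22 on C, and -0.12 to 0.13 for runner arrays. Their summed intensity was 4124 there, against 6117 and 6303 in the other non-runners and 4988 to 5866 in runners, with Plin1 below the control level on all arrays. Smooth muscle markers (7 of 9) scored -0.25 on non-runner B and -0.01 to 0.08 elsewhere, with 0 of them below the control level throughout. Their summed intensities were 15060 to 18680 in non-runners and 16340 to 16480 in runners. Acta2, Myl9, Des and Itga8 were lowest on non-runner B. Tagln was highest there, at 4518, and Myh11 and Cnn1 lay within the range of the other arrays. Fibroblast markers (6 of 8) scored 0.08 on non-runner B and -0.14 to 0.15 elsewhere, with sums of 12630 to 14270 and 12670 to 13460. Pericyte markers (3 of 5), which bear on Pdgfrb, scored -0.17 to 0.02 in non-runners and -0.03 to 0.15 in runners, with sums of 521 to 624 and 571 to 649. The part of cell makeup or RNA quality in the members' values was not tested. In whole tissue, fewer cells of a type and less RNA per cell cannot be told apart.

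**Figure D3:**
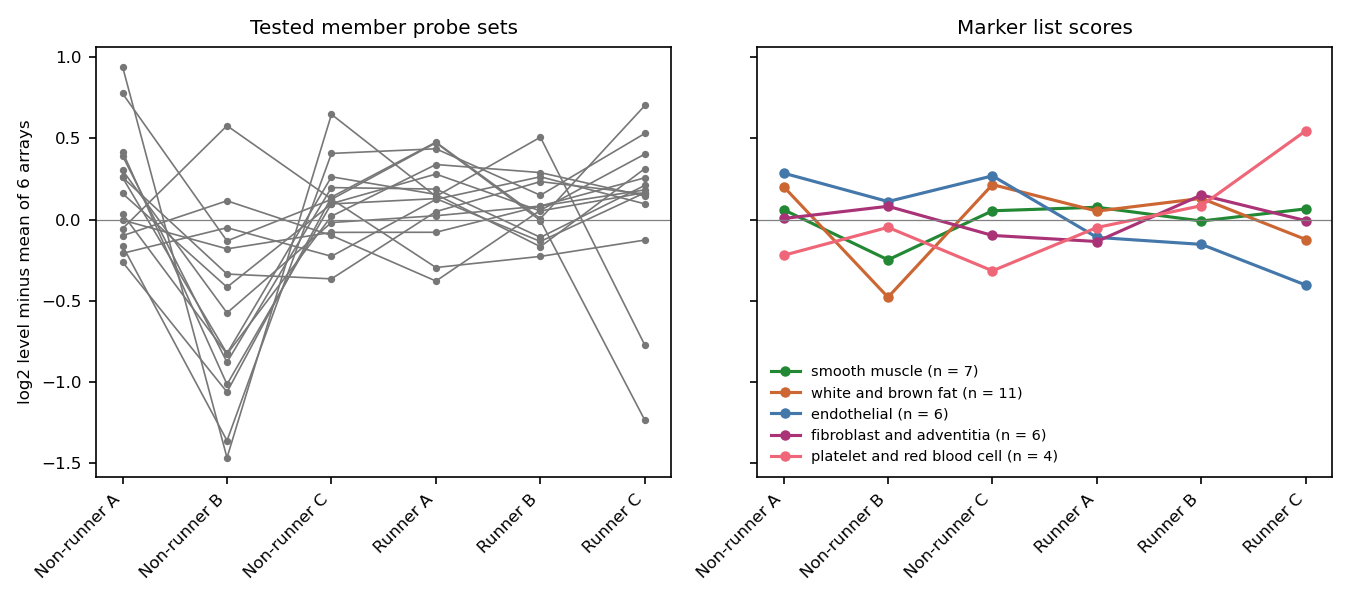
Log2 level on each array minus the mean of the 6 arrays, for the 15 tested member probe sets (left, 1 line each) and as scores of 5 marker lists (right, n is genes tested). On non-runner B most member lines dip, the fat score is -0.48 and the smooth muscle score -0.25.

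The other receptors and co-receptors had 0 genes past the adjusted threshold. Of 11 tested genes, 6 differences were above 0 and 5 below, with a median of 0.04. Nrp1, neuropilin, a co-receptor of VEGF-A, had mean intensities of 81.3 ± 13.6 for non-runner and 111 ± 10.4 for runner arrays (SD, n = 3), without overlap (log2 difference 0.45 ± 0.18 SE, limma adjusted p = 0.586, and 0.41 without non-runner B). Flt1, a receptor for both VEGF-A and VEGF-B, lay the other way without overlap, at 63.6 ± 3.4 and 47.03 ± 9.4 (SD, n = 3), with a log2 difference of -0.44 ± 0.19 (SE, limma adjusted p = 0.611), and -0.48 without non-runner B. It counts among the endothelial markers, which scored 0.11 to 0.29 in non-runners and -0.40 to -0.11 in runners, with 6 of 13 tested, sums of 536 to 663 and 491 to 505, and Vwf, Kdr and Icam2 below the control level on all arrays. That list was uneven. Egfl7, a secreted endothelial protein, made up most of the drop in the sums, at 119 ± 28.3 and 28.6 ± 12.3 (log2 difference -2.04 ± 0.37 SE, limma adjusted p = 0.229). All its runner arrays, at 14.6 to 37.2, lay below the control level, so the size of that difference is not established. Egfl7 has 2 probe sets, and the brightest tested is given. Nos3, the endothelial nitric oxide synthase, differed by -0.51 ± 0.21 in the brightest tested of its 6 probe sets, with overlapping groups (limma adjusted p = 0.595). Icam2 differed by -0.07 ± 0.19 (0.04 without non-runner B) and Thbd by -0.05 ± 0.17 (-0.0999 without it). Pecam1 lay the other way at 0.45 ± 0.30 and 0.12 without non-runner B. The part of endothelial content in the Flt1 value was not tested. Kdr, the main VEGF-A receptor, read 12.9 ± 6.1 and 19.2 ± 5.2, and Nrp2 7.5 ± 5.1 and 4.7 ± 3.0, all below the control level.

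Fgfr2, an FGF receptor of many epithelia, measured 53.6 ± 4.4 and 70.4 ± 6.7 in its brightest probe set, without overlap (log2 difference 0.36 ± 0.16 SE, limma adjusted p = 0.624). Its other 3 probe sets differed by 0.22, 0.29 and 1.37, the last with mean intensities of 14.5 and 39.7 and only 2 runner arrays above the control level. Fgfr4 lay below the control level, at 30.6 ± 4.4 and 19.2 ± 3.9 in its brighter probe set (log2 difference -0.66 ± 0.16 SE, limma adjusted p = 0.361), while the other differed by -0.05. Sdc4, a heparan sulphate carrier, measured 652 ± 143 and 672 ± 138, with a log2 difference of 0.04 ± 0.23 that was -0.0405 without non-runner B.

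Other ligands were near or below the control level. Of 10 measured genes, 9 had no array above it, among them Fgf9, Fgf10, Vegfd and Pgf, a placental relative of VEGF. Fgf7, made by connective tissue cells, measured 27.2 ± 3.8 and 35.7 ± 10.5, and Fgf9 26.9 ± 8.8 and 21.9 ± 4.9. These were the 2 tested, with log2 differences of 0.30 ± 0.22 and -0.28 ± 0.25 (SE), or 0.20 and -0.13 without non-runner B. Fgf10 read 13.0 ± 6.7 and 12.5 ± 3.4, Vegfd 6.4 ± 2.6 and 10.9 ± 4.9, and Pgf 9.7 ± 8.7 and 12.0 ± 6.2.

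Signal transducers below the receptors were balanced, with 12 of 23 tested genes above 0 and 11 below, a median of 0.0025, and 0 called. RhoA (Rhoa), a GTPase of the actin skeleton, had mean intensities of 198 ± 81.3 for non-runner and 323 ± 19.96 for runner arrays, a log2 difference of 0.79 ± 0.31 (SE, limma adjusted p = 0.585) that was 0.42 without non-runner B. Ptpn11, the phosphatase Shp2, differed by -0.86 ± 0.26 and Pik3r3, a regulatory subunit of phosphoinositide 3-kinase, by 0.48 ± 0.19 (log2, SE), but neither had an array above the control level, and Ptpn11 was under the brightness filter without non-runner B. Among negative regulators, 4 of 10 were above 0 and 6 below, with a median of -0.06. Ptpn2, a tyrosine phosphatase, differed by -0.52 ± 0.22, and by -0.31 without non-runner B, which was also the only array above the control level. Spry1, Sprouty, an inhibitor made in response to FGF signalling, measured 122 ± 16.7 and 94.97 ± 14.03 (log2 difference -0.36 ± 0.18 SE). Dusp6, a phosphatase of ERK and a common readout of FGF signalling, measured 140 ± 26.8 and 152 ± 29.5, with log2 differences of 0.13 ± 0.21 there (0.22 without non-runner B) and 0.77 in a dimmer probe set. Nf1, a Ras inhibitor, measured 272 ± 27.8 and 231 ± 36.4.

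Genes of oxygen sensing, which act upstream of Vegfa, had 4 of 7 differences above 0, a median of 0.15, and 0 called. Hif1a, the hypoxia-inducible factor, measured 34.1 ± 7.8 and 38.5 ± 3.1, with 1 array above the control level, and its log2 difference was 0.15 ± 0.17 (SE) and 0.0433 without non-runner B. Vhl, which marks that factor for degradation, differed by -0.31 ± 0.20 (SE) in its bright probe set and by 1.12 in a dim one. The bright one ranged from 92.3 to 111.1 apart from non-runner B, where it read 164.9, and without that array its difference was -0.12. Arnt2 read 24.9 ± 6.0 and 29.8 ± 3.6, with a log2 difference of 0.21 that was 0.039 without non-runner B, and Egln3, an oxygen-dependent hydroxylase, 68.2 ± 6.9 and 78.4 ± 13.3. Leaving out non-runner B brought this median to -0.0084. Of 23 genes to be named whatever they showed, 15 had a probe set with 1 symbol, and Flt4, Fgfr3, Vegfc, Pdgfc, Pdgfd, Epas1, Spry2 and Hspg2 were not analysed here.

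**Figure D4:**
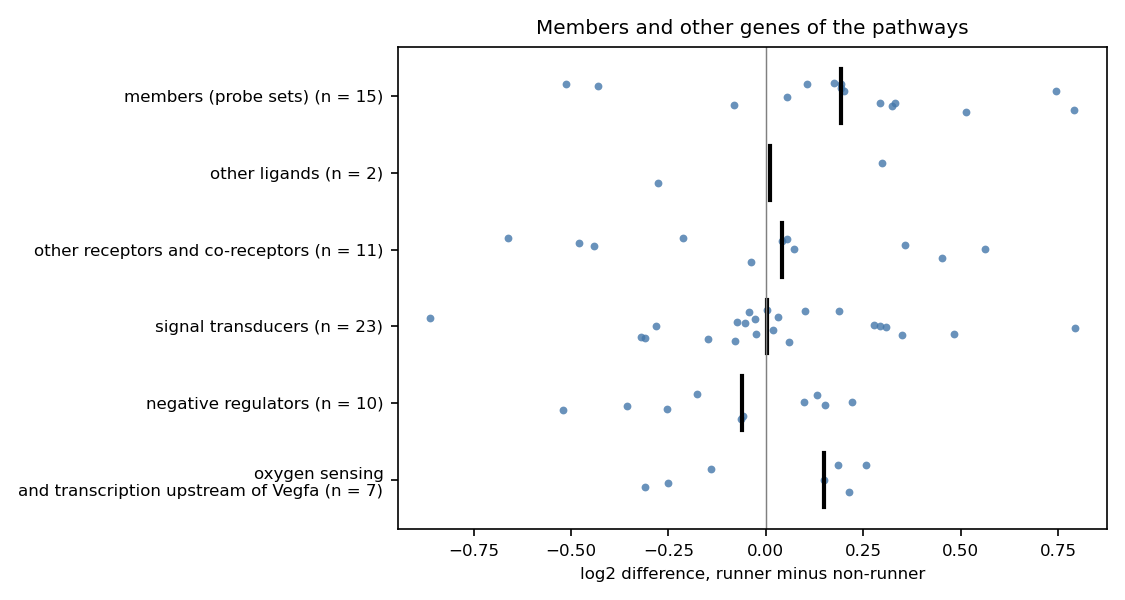
Log2 difference of runner minus non-runner (x axis) for the tested member probe sets and for the brightest tested probe set of each gene in 5 pathway lists; points are probe sets, spread vertically only for legibility, and black bars are medians. Medians lie between -0.06 and 0.19, and no point passed limma's test after adjustment.

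The genes with patterns most like the brightest tested probe set of each member were found by Pearson correlation of log2 levels over the 6 arrays. Apart from Fgf2, these member probe sets had their lowest or highest value on non-runner B. That of Fgf2 (M22427_at) had its extremes on runners A and C. The search covered the tested probe sets with 1 gene symbol, of 3173 genes. With so many and 6 points, high values arise easily, and they are given as descriptions. Pdgfrb was closest to Unc5b (r = 0.989) and Ptbp1 (0.989), and the bright Pdgfra probe set to Gnai2 (0.996) and Itga7 (0.994). Fgfr1 was closest to Uqcr11 (0.996) and Chmp1a (0.995), and Pdgfa to Bad (0.993) and Csrp1 (0.990). Vegfb was closest to Kcnmb1 (0.992) and Gna12 (0.990), and Vegfa to Aplp2 (0.991) and Casp6 (0.983). Fgf1 was closest to Pou3f4 (0.986) and Slc8a1 (0.968), and Fgf2 to Sftpb (0.991) and Trh (0.977). Over the 5 arrays without non-runner B these correlations were 0.931 to 0.996.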

How the data were processed

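The authors deposited 1 linear intensity per probe set and array; no source used here names the software that made these values. In the deposited intensities, each array had a mean of 100.1 once the 2% at either end was trimmed, so the arrays share a scale. Of the probe sets, 7006 had 1 gene symbol in the platform annotation, 308 several and 1426 none, beside 59 controls. The GRCr8 gene table held 6985 of the probe sets with 1 symbol, and 0 symbols changed.

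A pseudocount of 2.4, the 10th percentile of values above 0, was added before taking log2, which understates differences of dim probe sets. After quantile normalization, controls and the dimmest 40% of the others by mean log2 over all arrays were left out. The 5244 remaining probe sets were fitted with limma 3.58.1 in R 4.3.3 (functions lmFit and eBayes, two-sided tests, threshold 0.05), with p-values adjusted over all of them by the Benjamini-Hochberg method. SE and 95% intervals come from that fit. The dimmest tested member, a Vegfa probe set, had a mean log2 level of 4.40, and the brightest not tested, of Fgfr1, 3.90. The fit was tested on simulated data. Precision is limited by the number of arrays.

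Members and gene lists were chosen with earlier results of these data known. Named were all members, 23 pathway genes whatever they showed, the 3 genes of smallest p in each pathway list, and the 2 closest patterns per member. A gene in a list is given by its brightest tested probe set, and overlap of groups was read from deposited intensities. Alternatives were pseudocounts of 1 and 16, no quantile normalization, median centring, no filter or the dimmest 60% left out, a variance trend, array quality weights, a replicate block on the chip letter, the beta-actin ratio as covariate, and leaving out each array. Figures were drawn with matplotlib 3.10.9.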

Additional observations from a re-analysis of the deposited data

How the results depend on the processing

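Over the alternatives, 0 member probe sets passed limma's threshold, with adjusted p between 0.347 and 0.996. With all 6 arrays, 134 of 142 member values kept their direction and 8 turned: with array quality weights the Pdgfa probe sets (-0.033 and -0.081) and the second Fgfr1 probe set (-0.089), and with beta-actin 3'/5' ratios in the model the same (-0.17, -0.37 and -0.31) and 2 of Vegfa, rc_AA850734_at and M32167_g_at (-0.18 and -0.27). Leaving out each array turned 7 of 87, with ranges of -0.13 to 0.26 for Fgf2 (M22427_at), -0.16 to 0.38 for Fgfr1 (D12498_s_at), -0.072 to 0.21 and -0.20 to 0.44 for Pdgfa, and -0.83 to 0.28, -0.092 to 0.62 and -0.047 to 0.39 for Vegfa (L20913_s_at, M32167_g_at and rc_AA850734_at). The probe set L20913_s_at was under the brightness filter, with no value, without non-runner A, non-runner C or runner B. Without turning, Vegfa (M32167_at) ranged from -0.87 to -0.024, Fgf2 (X07285cds_s_at) from 0.19 to 0.50, Fgf1 from 0.09 to 0.25, Pdgfrb from 0.45 to 1.05, Vegfb from 0.25 to 1.13, the first Fgfr1 probe set from 0.23 to 0.66 and the bright Pdgfra probe set from -0.57 to -0.25. The beta-actin ratio as covariate gave 0.37 for Pdgfrb, 0.21 for Vegfb, 0.18 for the first Fgfr1 probe set and -0.18 for the bright Pdgfra probe set. Each was smaller in size than in any fit leaving out an array. Other members grew in size with the covariate, among them Vegfa (M32167_at -0.75, L20913_s_at -0.91) and the dim tested Pdgfra probe set (0.41). Over all probe sets, array quality weights gave 0 higher and 1 lower, and leaving out arrays 0 to 4 higher and 0 to 1 lower. At an unadjusted p under 0.05 there were 423, and 298 to 617 with other settings on 6 arrays; leaving out arrays gave 283 to 550. List medians moved to -0.051 for signal transducers with median centring, and for oxygen sensing to 0.022 with the dimmest 60% left out and -0.054 with the covariate. Leaving out arrays gave -0.0084 to 0.23 for oxygen sensing, -0.039 to 0.053 for signal transducers, -0.075 to 0.12 for other receptors, -0.08 to 0.15 for other ligands and -0.11 to 0.02 for negative regulators. With the dimmest 60% left out the list of other ligands had no gene left. The labels do not settle whether chip letters pair arrays, and they were treated as names. Same-lettered arrays had correlations of deviations from -0.09 to -0.04. Each group holds every letter, so a replicate block cannot change a difference, and the unchanged differences say nothing about pairing. The limma unadjusted p moved both ways. It fell for Pdgfrb (0.0376 to 0.0047) and Vegfb (0.0998 to 0.0374). It rose for the tested Pdgfra probe sets (0.0541 to 0.0673 and 0.0550 to 0.0960). With the block, 357 probe sets had an unadjusted p under 0.05 and 0 were called. The causes were not tested.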
